A study of Mus musculus with 12 samples.

Results

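The baseline of wild-type kidney cortex was described from the 6 TG- libraries, of 12 libraries in the series, chosen by their genotype label alone. They came from 3 male C57BL/6 mice, numbered 43-26, 43-50 and 43-76, each 18 months old, labelled TRACK/gamma-HIF1alphaM3 TG-. By the paper, they were wild-type littermates of TRACK mice. They lack the transgene that drives a constitutively active, mutant HIF1alpha in proximal tubules. Whether the 3 mice share a litter is not given, and no treatment is named, in the sources used here. From each mouse 2 kidneys were sequenced as separate libraries, from a thin outer slice of cortex. The labels number the kidneys 1 and 2 without saying which is left, and neither the hour of dissection nor the feeding state is given in the sources used here. All values below are from these 6 libraries, with no contrast between genotypes.

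The kidney cortex consists mostly of proximal tubules, which reabsorb filtered phosphate, glucose, amino acids and proteins, make glucose, and run on fatty acids and mitochondrial respiration. It also holds the glomeruli, where podocytes and capillary endothelium form the filter, the distal convoluted tubules, the connecting tubules, and the cortical parts of the thick ascending limbs and collecting ducts. In male mice, androgen raises a set of proximal tubule genes, of which the best known is Kap.

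The libraries held between 24963346 and 33704850 counted reads, and 22512 to 23030 genes had at least 1 read. Levels of different genes are compared as RPKM, reads per kilobase of a gene's merged exons scaled to the counted reads of the library, and are given as the mean ± SD of 3 mice after averaging the kidneys of each. One gene across libraries is compared as CPM, reads scaled to the normalized library size. In bulk RNA, fewer cells of a type and less RNA per cell cannot be told apart.

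A few transcripts dominated the cortex. The 20 most abundant genes held 35.8 ± 0.819% of all RPKM (SD, n = 3 mice), while 13479 genes reached 1 RPKM, 4874 reached 10 RPKM and 439 reached 100 RPKM. First stood Kap, the kidney androgen-regulated protein, with 23132 ± 153 RPKM. Its 6 libraries lay between 21924 and 24001 RPKM, and the kidneys of one mouse differed by more than the mouse means. Gpx3, the selenium-dependent glutathione peroxidase that the proximal tubule secretes into plasma, followed among nuclear genes with 11976 ± 221 RPKM, and its lowest and highest libraries held 11555 and 12252 RPKM. Selenop, the plasma carrier of selenium, reached 1600 ± 30.5 RPKM. Cyp4b1, a cytochrome P450 of male kidney, stood at 1827 ± 120 RPKM. Slc34a1, the sodium phosphate cotransporter of the brush border, had 1763 ± 59.9 RPKM.

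Of the 20 genes, 10 were mitochondrial, 7 of them mRNAs and 3 tRNAs. The mitochondrial genome, which encodes subunits of the respiratory chain, gave 9.58 to 10.9% of the reads in every library. The mRNA of cytochrome b, mt-Cytb, held 22908 ± 1863 RPKM, close to Kap, and the mRNAs of complex I subunits followed with 16037 ± 726 for mt-Nd1, 12126 ± 423 for mt-Nd2, 10311 ± 719 for mt-Nd6, 9033 ± 654 for mt-Nd5 and 7868 ± 617 for mt-Nd4. The cytochrome oxidase mRNA mt-Co1 held 9312 ± 677 RPKM. The tRNAs mt-Te, mt-Tl1 and mt-Tp reached 3120 ± 466, 1339 ± 652 and 1196 ± 152 RPKM. In contrast, mt-Atp6, mt-Atp8, mt-Co3 and mt-Nd4l had at most 3 reads in any library. Of the 51-base windows of mt-Atp6, mt-Co3, mt-Nd4l and mt-Co2, 99.5%, 99.9%, 98.8% and 100% also stand in transcripts annotated to other genes, against 0% for mt-Cytb and mt-Nd1. For mt-Nd4 and mt-Co1 the share is 62.2% and 50.6%, and for mt-Atp8, which had no read, it is 0%. How reads with more than 1 possible origin were counted is not given in the sources used here, so these levels cannot be compared with each other, and the cause of the low counts was not tested.

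Some entries among the 20 rest on reads that cannot be assigned to 1 gene. Gm22133 (2885 ± 43.5 RPKM) lies wholly inside Ftl1, Gm26377 (1203 ± 15.5 RPKM) inside Eef1a1, and Pfn3 (1281 ± 19.96 RPKM) inside Slc34a1. The processed pseudogene Gm5424 stood at 1731 ± 176 RPKM and its parent Ass1, argininosuccinate synthase, at 23.0 RPKM. Of the windows of Gm5424, 76.1% are also in Ass1. Measured by reads instead of reads per length, the leading genes were mt-Cytb, Gpx3, mt-Nd5, Kap, mt-Nd1, mt-Co1, mt-Nd2, mt-Nd4 and Slc34a1, from 26207 CPM down to 8245 CPM.

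**Figure D1:**
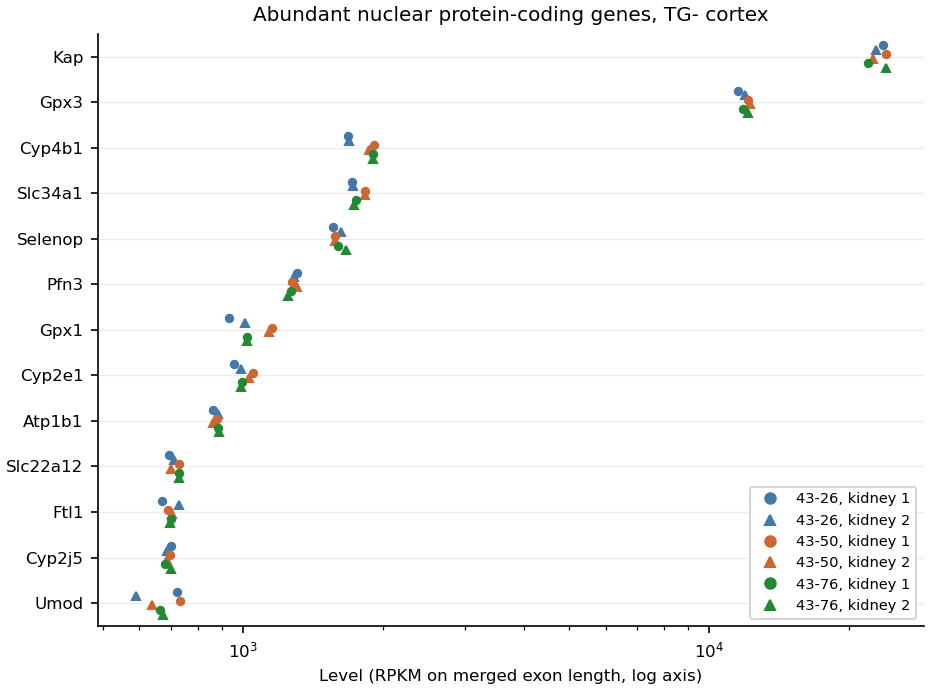
Levels of the nuclear protein-coding genes named in the text among the 30 most abundant (vertical axis) in RPKM on a log axis, with 1 point per library, coloured by mouse and shaped by kidney. Kap and Gpx3 stand apart with means of 23132 and 11976 RPKM, and Cyp4b1 has 1827 RPKM.

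The labelled tissue matched its markers, those of the cortical nephron being high and those of the inner medulla near 0. Slc34a1 stood at 1713 to 1832 RPKM over the 6 libraries and Lrp2, the endocytic receptor megalin of the proximal tubule, at 137 to 169 RPKM (mean 155 ± 9.61). Umod, the uromodulin secreted by the thick ascending limb, ranged from 589 to 734 RPKM (mean 669 ± 15.8), again with more spread between the kidneys of a mouse than between mice. Aqp2, the vasopressin-regulated water channel of principal cells, had 82.3 and 85.1 RPKM in 43-26, 61.6 and 58.0 in 43-50, and 59.4 and 59.3 in 43-76. Both kidneys of 43-26 lay above the other 4 libraries for Aqp2. Neither marker of the inner medulla reached 1 RPKM, Aqp4 having 0.614 ± 0.101 RPKM and the urea transporter Slc14a2 at most 0.150 RPKM in any library.

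All 12 markers of the early proximal tubule exceeded 1 RPKM, and their summed level was 3238 to 3398 RPKM per library. After Slc34a1 came the organic anion transporter Slc22a6 with 395 RPKM and the glucose transporter Slc5a2, SGLT2, with 226 RPKM. The list of late and male proximal tubule genes summed to 24630 to 26817 RPKM, of which Kap made up most, followed by Cyp4b1 and by Slc7a13, a light chain of the straight segment, with 487 RPKM. In the thick ascending limb list, Umod was followed by the loop diuretic target Slc12a1 (92.7 RPKM) and the potassium channel Kcnj1 (79.7 RPKM). The distal convoluted tubule was marked by Egf with 120 RPKM, the thiazide target Slc12a3 with 70.8 RPKM and the kinase Wnk4 with 41.4 RPKM. In the connecting tubule list the calcium-binding S100g (490 RPKM) and the kallikrein Klk1 (487 RPKM) led, ahead of Calb1 (87.2 RPKM).

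Principal cell genes were led by Hsd11b2, the enzyme that inactivates glucocorticoid, with 78.4 RPKM, followed by Aqp2 with 67.6 and Aqp3 with 52.0 RPKM. Intercalated cells were represented by the chloride-bicarbonate exchanger Slc26a4 at 30.03 RPKM and the proton pump subunits Atp6v1g3 and Atp6v1b1 at 21.04 and 17.97 RPKM. Podocyte genes were lower, with Podxl at 46.9 RPKM, and the 7 genes together summed to 82.2 to 108 RPKM per library. Ren1, the renin of juxtaglomerular cells, stood at 40.6 RPKM, while the macula densa genes Nos1 and Ptgs2 had at most 0.221 and 0.114 RPKM in any library.

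**Figure D2:**
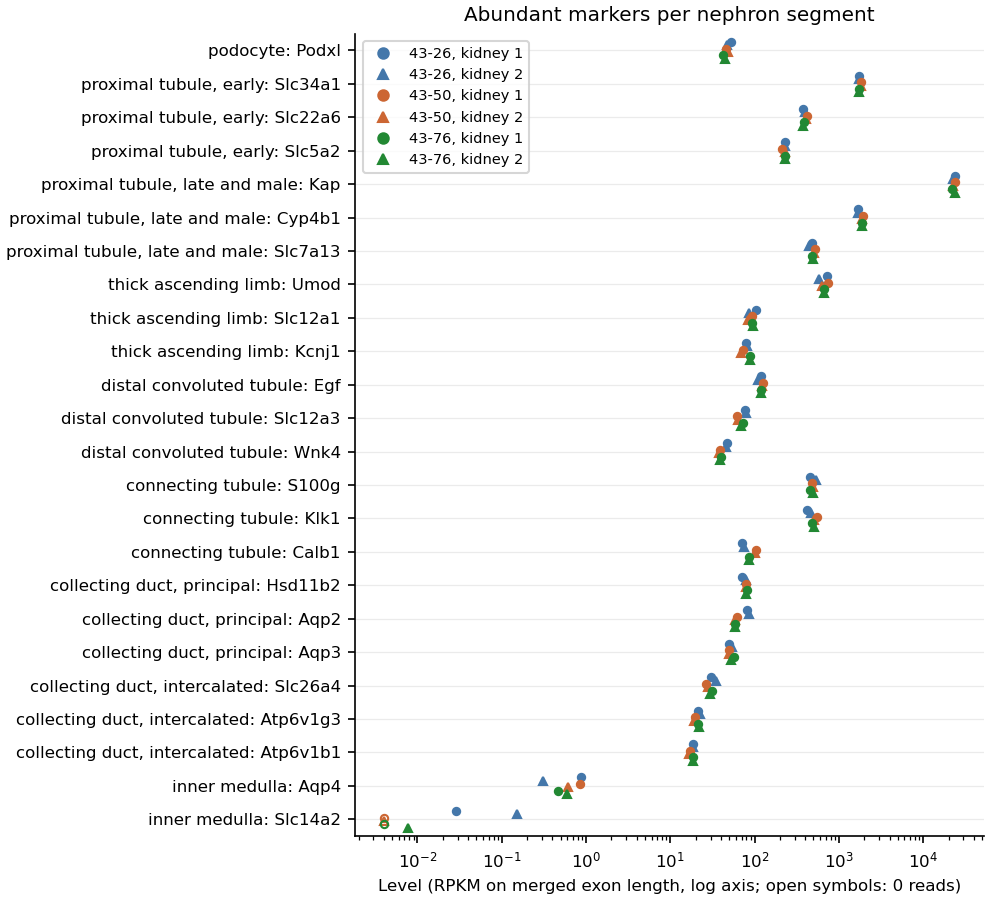
Levels of markers among the 3 most abundant of each nephron segment (vertical axis) in RPKM on a log axis, with 1 point per library and open symbols for 0 reads. Proximal tubule markers stand highest, Kap at 23132 and Slc34a1 at 1763 RPKM, and Aqp4 and Slc14a2 of the inner medulla stay below 1 RPKM.

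The lists of other cell types each summed to less than that of the early proximal tubule. The B and plasma cell list was highest among them, with 336 to 647 RPKM per library, above the lists of several nephron segments. Capillary genes were led by Plvap (48.8 RPKM), Eng (28.2 RPKM) and Kdr (8.42 RPKM). Of the myeloid list, Cd74 and the class II genes H2-Eb1 and H2-Ab1 led with 116, 38.7 and 28.9 RPKM. Fibroblast genes were low, with Dcn, Col1a1 and Pdgfra at 2.998, 2.66 and 2.53 RPKM, and smooth muscle and mesangial genes were led by Tagln, Acta2 and Pdgfrb at 13.1, 10.97 and 7.71 RPKM. In the B and plasma cell list, Igkc, the kappa light chain, reached 373 RPKM, Ighm 48.5 RPKM and Jchain 29.5 RPKM, whereas the B cell gene Ms4a1 stayed at 0.0771 RPKM. T and NK cell genes were low, with Ccl5, Nkg7 and Cd8b1 at 1.84, 0.759 and 0.688 RPKM. Among blood and liver genes, Hbb-bs had 44.0, Hbb-bt 8.46 and Alas2 2.17 RPKM, and Ttr had 26.5, Apoa2 4.26 and Alb 3.26 RPKM.

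Neighbouring tissues were scarcely detected. The adrenal genes Cyp11a1, Cyp11b1, Cyp11b2, Cyp21a1, Dbh and Th had at most 3 reads in each library, and only Star (0.852 RPKM) had more. The urothelial genes Upk2 and Upk3a and the brown fat gene Ucp1 were likewise at 3 reads or fewer, the other urothelial genes Upk1b and Krt5 standing at 0.0584 and 0.0469 RPKM. A count of 3 reads corresponded to 0.0890 to 0.120 CPM, which covers counting error only. Skeletal muscle genes Acta1, Ckm and Myh4 had 1.97, 0.0871 and 0.0343 RPKM. Of the fat list, Car3 had 6.79, Fabp4 4.46 and Cfd 1.66 RPKM, the last from a single mouse as given below.

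For 41 families of isozymes and transporters, the share of the family's summed RPKM held by its leading member was computed in each library. The median share of the leader was 72.7 ± 0.890%. It exceeded 50% in 29 families and 90% in 14 families, and in 37 families the same member led in all 6 libraries. The exceptions were the metallothioneins and the Na/H exchangers, with the leader first in 5 libraries, and the SLC6 transporters and the carbonic anhydrases, with the leader first in 4 libraries.

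In glucose metabolism, the members known from proximal tubule and liver led the steps of glucose synthesis. Pck1, the cytosolic PEP carboxykinase, held 99.5 ± 0.109% of its family with 425 RPKM. Fbp1 held 97.8 ± 0.220% and G6pc 92.6 ± 0.777% of theirs. Hexokinase was low as a family (11.2 RPKM) and was led by Hk1 (91.4 ± 0.311%), ahead of Hkdc1 (6.01%) and Hk3 (1.63%). Phosphofructokinase was also low, and Pfkm held 59.4 ± 0.786% against 28.9% for Pfkl and 11.7% for Pfkp, with Pfkl first by the deposited RPKM. On the CPM scale Pfkm and Pfkl were nearly equal, with mouse means of 44.0 to 47.0 and 42.5 to 47.1 CPM. Ldhb, the heart-type lactate dehydrogenase, held 69.4 ± 0.822% against 30.6% for Ldha, and Ldhc was listed at 0 in every library. Eno1 led enolase with 77.0 ± 2.44% over Eno3 (20.2%) and Eno2 (2.81%), and Pkm led pyruvate kinase with 54.0 ± 2.57% over Pklr. Of their 51-base windows, 25.9% of Eno1 and 25.4% of Pkm are shared with other annotated genes, so their levels are uncertain.

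Pdk2 led the pyruvate dehydrogenase kinases with 72.7 ± 9.21%, the widest SD of the 41 families, followed in the mean of the mice by Pdk3 (12.5%) and Pdk4 (11.01%). The order of these differed by mouse, Pdk4 having 36.0 and 34.8 RPKM in 43-50 against 16.9 and 17.4 for Pdk3, but 4.16 and 4.39 RPKM in 43-26 and 7.69 and 7.52 in 43-76. Idh1 held 62.8 ± 3.05% against Idh2. Respiratory chain subunits had their common forms, Cox4i1 with 99.9 ± 0.0414%, Cox6a1 with 99.7 ± 0.0698% and Cox7a2 with 82.1 ± 1.08%. Gpx3 held 91.8 ± 0.501% of glutathione peroxidase, ahead of Gpx1 (8.02%) and Gpx6 (0.0841%). Gpx4 had 3.90 RPKM, but 34.5% of its windows are shared with other annotated genes. The level of Gpx4 is therefore uncertain, and so is the place of Gpx6 before it. Mt1 and Mt2, which bind zinc and copper, shared their family with 53.4 ± 5.52% and 46.2%, a difference within the spread of the mice. No glutathione transferase held a large share, the first 3 being Gstt1 (19.4 ± 1.10%), Gstm5 (16.9%) and Gstz1 (14.1%), with Gstz1 first by CPM or the deposited RPKM. Among P450 enzymes, Cyp4b1 held 91.5 ± 0.560% of subfamily 4, before Cyp4a12a (3.13%) and Cyp4a31 (2.94%). Cyp2e1 held 47.0 ± 0.811% of family 2, before Cyp2j5 (32.5%) and Cyp2j13 (6.36%), with Cyp2j5 first by the deposited RPKM.

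Of the sodium pump, Atp1b1 held 97.0 ± 0.0895% of the beta subunits, and the regulator Fxyd2 97.4 ± 0.309% of its family. Of the proton pump, Atp6v0a4 held 67.1 ± 1.27% of subunit a, ahead of Atp6v0a2 (16.6%) and Atp6v0a1 (11.1%), and Atp6v1b2 held 84.3 ± 0.707% of subunit B. Slc34a1 held 97.5 ± 0.0629% of the sodium phosphate cotransporters, before Slc34a3 (1.48%) and Slc20a2 (0.607%).

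For glucose, Slc2a2 led the facilitative carriers with 42.0 ± 0.826%, before Slc2a5 (22.3%) and Slc2a1 (10.9%). Slc5a2 led the sodium-coupled carriers with 44.4 ± 0.370%, before the lactate carriers Slc5a12 (22.7%) and Slc5a8 (10.5%). Slc22a12, the urate carrier URAT1, led the organic ion transporters with 32.7 ± 0.959%, before Slc22a6 (18.03%) and Slc22a18 (12.7%). By the deposited RPKM Slc22a6 was first, and 27.4% of the windows of Slc22a12 are shared with Nrxn2. The SLC7 family was led by Slc7a13 (72.8 ± 1.06%), before Slc7a7 (9.01%) and Slc7a8 (8.99%), with Slc3a1 holding 83.1 ± 1.253% of the heavy chains. The SLC6 family was led by Slc6a18 (27.6 ± 2.38%), Slc6a19 (25.0%) and Slc6a8 (17.5%). Slc6a18 was ahead of Slc6a19 in both kidneys of 43-26 and 43-50 and behind it in those of 43-76. Slc6a19 was first by CPM or with longest transcripts, and Slc6a6 by the deposited RPKM.

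Ion and water channels showed the same mixture of segments. Aqp1, the constitutive water channel of the proximal tubule, held 69.0 ± 3.25% of the aquaporins, Aqp2 14.3% and Aqp3 11.003%. Cldn2, a claudin that forms cation pores, held 61.2 ± 1.01% of claudins, before Cldn10 (12.9%) and Cldn12 (8.37%). Slc4a4, the basolateral bicarbonate exit of the proximal tubule, held 85.4 ± 1.12% of its family, before Slc4a9 (4.89%) and Slc4a1 (4.32%). Slc12a1 (43.6 ± 0.563%) stood before Slc12a3 (33.2%) and Slc12a7 (9.43%), with Slc12a3 first by CPM, by the deposited RPKM or with longest transcripts. Carbonic anhydrase was led by cytosolic Car2 (33.5 ± 3.39%), then membrane-bound Car4 (26.8%) and Car12 (13.6%), with Car12 first by CPM. The Na/H exchangers were divided among several members, with Slc9a8 (29.5 ± 1.38%) and Slc9a3 (24.0%) first, and Slc9a3 leading by the deposited RPKM. Of the brush border peptidases, Mep1a held 45.5 ± 0.318%, Ggt1 31.1% and Ace 4.96%.

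**Figure D3:**
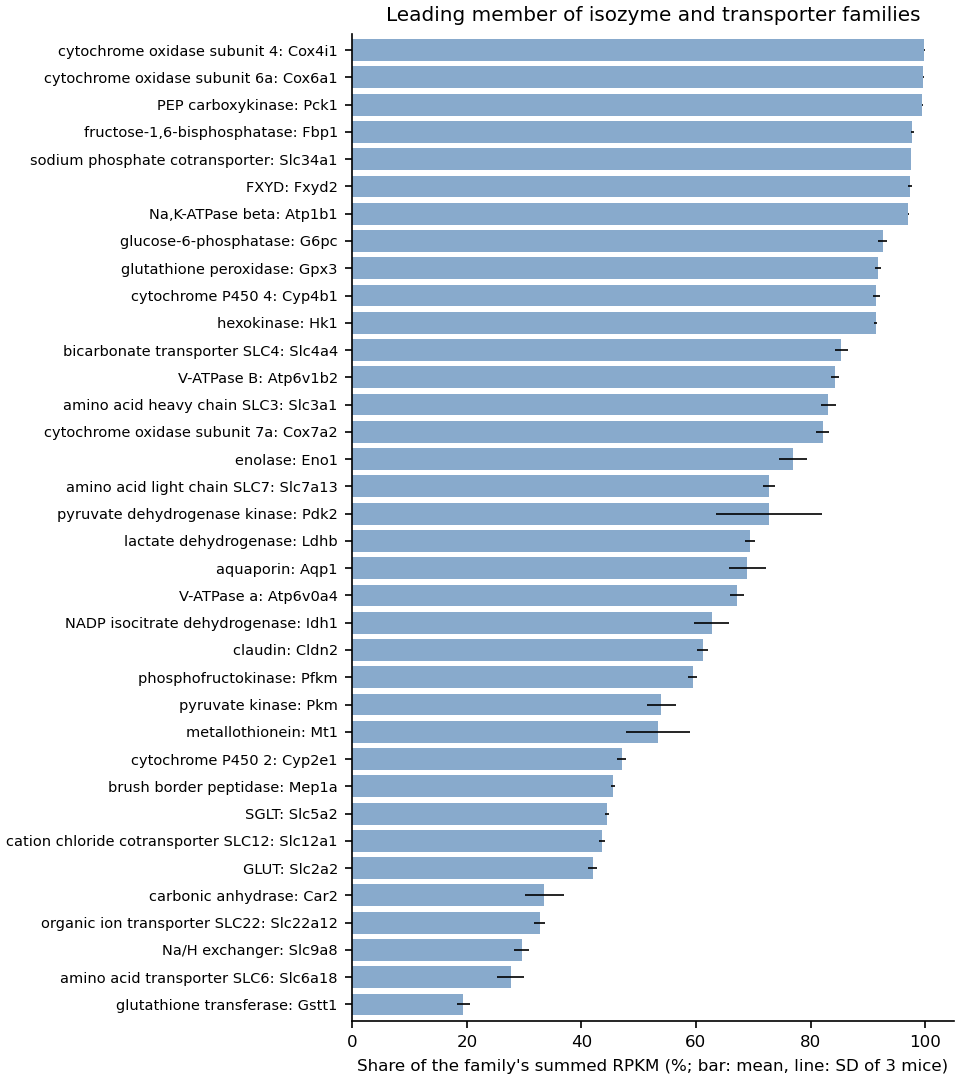
Share of a family's summed RPKM held by its leading member, in percent, as bars of the mean over 3 mice with lines for the SD. The bars run from 99.9% for Cox4i1 of cytochrome oxidase to 19.4% for Gstt1 of the glutathione transferases, with the widest line at Pdk2.

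Genes that vary among the animals were sought by setting the 3 mice against the spread between the kidneys of a mouse, with edgeR's quasi-likelihood test on the counts. The variation between the kidneys was small, a biological coefficient of variation of 0.0293, against 0.0902 over all 6 libraries. Of 18070 genes tested, 4502 (24.9%) differed among the mice at an adjusted p below 0.05 by Benjamini-Hochberg. At least 2-fold between the highest and lowest mouse was found for 366 of them (2.03%). Most of the differences were small, with a median ratio of 1.23 for the genes called and 1.15 for all genes, and the share called rose with the level, from 10.1% of genes below 1 RPKM and 24.5% from 1 to 10 RPKM to 36.3% from 10 to 100 RPKM and 64.9% of genes at or above 100 RPKM. With 2 kidneys of 3 animals, these p-values say that the animals differ by more than their own kidneys do, and nothing about other mice. Without 43-26 or without 43-50, 2555 and 2313 genes were called between the remaining animals, and DESeq2's likelihood ratio test called 2274.

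No mouse stood apart for all genes. Of the 4502 genes, 43-26 was the mouse farthest from the others for 1823, 43-50 for 1871 and 43-76 for 808. Of the 273 family members tested, 124 differed (45.4%, against 24.9% of all genes). The share of all genes was 36.3% from 10 to 100 RPKM and 64.9% at or above 100 RPKM, so the level of the members bears on this count. At 2-fold or more 5 members differed, a share near the 2.03% of all genes, namely Pdk4, Aqp8, Car3, Mt2 and Eno2. Segment markers differed by small ratios in some lists and larger ones in others. The 8 principal cell genes had a median ratio of 1.09, the 12 early proximal tubule genes 1.11, and the thick ascending limb, intercalated cell and late and male proximal lists 1.12, 1.12 and 1.15, against 1.15 for all genes. Above this lay the distal convoluted tubule, connecting tubule, podocyte and juxtaglomerular lists with 1.19, 1.22, 1.28 and 1.88. Of the early proximal genes 8 of 12 were called, 5 without 43-50, against 24.9% of all genes and 64.9% of those at or above 100 RPKM. Kap, Umod, Slc12a1 and Slc5a2 did not pass the test, with ratios of 1.03, 1.07, 1.06 and 1.03. Aqp2 differed 1.40-fold, Calb1 1.42-fold and Slc34a1 1.09-fold.

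Fatty acid and ketone genes that the nuclear receptor PPARA induces in fasting differed in 1 order among the mice. Of 12 such genes tested, 12 differed among the mice, against 24.9% of all genes and 36.3% of those from 10 to 100 RPKM. Each was highest in 43-50 and lowest in 43-26 by the mouse means, with a median ratio of 1.58 against 1.15 for all genes. Of them, 3 differed at least 2-fold, against 2.03% of all genes. This list, like the clock, immediate early and other lists here, was chosen with earlier results of these data known, so its counts are not an independent test. Pdk4, the kinase that shuts pyruvate out of mitochondria, had 14.5 and 15.3 CPM in 43-26, 128 and 124 CPM in 43-50, and 26.9 and 26.3 CPM in 43-76. The kidneys of each mouse lay within a few percent of each other, and the range among mice was 8.46-fold (edgeR, adjusted p = 4.09e-15). Angptl4, an inhibitor of lipoprotein lipase, had 37.4 and 35.4 CPM in 43-26, 117 and 110 CPM in 43-50, and 60.8 and 61.6 CPM in 43-76. The peroxisomal Ehhadh differed 1.72-fold, Cyp4a14 1.68-fold, the lipid droplet protein Plin2 1.66-fold and Vnn1 1.51-fold. Acot1, Acaa1b and Cyp4a10 differed 1.46-, 1.42- and 1.40-fold, and Cpt1a differed 1.20-fold. Fgf21 had at most 3 reads in every library. Without 43-50, 8 of the 12 still differed between the remaining mice.

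Pck1, of glucose synthesis, showed the same order. It had 1027 and 968 CPM in 43-26, 1939 and 1914 in 43-50, and 1477 and 1442 in 43-76, a 1.93-fold range (edgeR, adjusted p = 2.60e-11). The insulin receptor substrate Irs2, named after its values were seen, had 34.8 and 34.2 CPM in 43-26, 86.1 and 89.1 in 43-50, and 27.0 and 26.1 in 43-76. Both kidneys of 43-50 were high, and those of 43-76 lay below those of 43-26. Bcl6, a repressor of lipid genes, went another way, with 30.5 and 29.5 CPM in 43-26, 24.6 and 25.2 in 43-50, and 168 and 168 CPM in 43-76 (6.74-fold, edgeR, adjusted p = 2.09e-15). Cish, a feedback inhibitor of cytokine and growth hormone signals, had 8.55 and 9.19 CPM in 43-26, 33.2 and 33.8 in 43-50, and 3.58 and 3.47 in 43-76. Cish spanned 9.50-fold. Gm17041, annotated antisense to Cish with 89.5% of its windows in it, spanned 12.1-fold, and the reads of the pair cannot be told apart.

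Most clock genes differed among the mice. In the circadian clock, ARNTL with CLOCK or NPAS2 drives the Per, Cry, Dbp and Nr1d genes through E-boxes, and the NR1D receptors act on Arntl, Nfil3 and Cry1 through AGGTCA elements. Of 18 genes, 16 were called against 24.9% of all genes, 5 of them at least 2-fold against 2.03%, and the other two were Clock and Bhlhe40, with ratios of 1.08 each. Nfil3 had 3.93 and 4.42 CPM in 43-26, 15.7 and 15.6 in 43-50, and 2.57 and 2.71 in 43-76 (5.92-fold, edgeR, adjusted p = 4.04e-10). Cry1 had 2.26 and 2.15 CPM in 43-26, 7.98 and 8.53 in 43-50, and 2.61 and 2.31 in 43-76. Both genes were high in the kidneys of 43-50 alone. Nr1d1 was the reverse, with 112 and 116 CPM in 43-26, 52.4 and 52.6 in 43-50, and 125 and 123 in 43-76.

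The remaining clock genes showed other orders. Ciart was lowest in 43-50 and highest in 43-76 (2.01-fold), and Dbp was high in 43-76 only, with 117 and 110 CPM against 71.4 to 76.1 CPM in the other 4 libraries. Per1, Per3 and Bhlhe41 were lowest in 43-26 and highest in 43-76, by 1.59-, 1.46- and 1.72-fold. Per2 and Cry2 were highest in 43-50 (1.45- and 1.43-fold). Npas2 and Arntl were lowest in 43-76, with ranges of 1.88- and 1.85-fold. Nr1d2, Tef and Hlf differed 1.20-, 1.12- and 1.11-fold. Litter, hour of dissection and feeding state are not given for any mouse and cannot be told apart from the animal.

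The 250 bases before the start of 3 of these genes and of the immediate early gene Dusp1 are shown because they hold the elements named for the clock or for cyclic AMP signals (RefSeq, GRCm38.p6). Capitals mark the E-box CACGTG, the D-box TTATGNAA, AGGTCA and the cyclic AMP element TGACGTCA, on either strand. Cry1 is at chr10:85185055-85185304 (minus strand), Nfil3 at chr13:52981040-52981289 (minus), Per1 at chr11:69098699-69098948 (plus) and Dusp1 at chr17:26508473-26508722 (minus).
Cry1: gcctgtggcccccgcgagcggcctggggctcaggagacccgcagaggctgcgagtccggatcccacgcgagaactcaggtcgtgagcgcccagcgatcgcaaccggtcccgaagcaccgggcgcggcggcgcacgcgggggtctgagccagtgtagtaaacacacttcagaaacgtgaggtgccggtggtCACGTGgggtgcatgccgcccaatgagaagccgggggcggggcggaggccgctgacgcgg
Nfil3: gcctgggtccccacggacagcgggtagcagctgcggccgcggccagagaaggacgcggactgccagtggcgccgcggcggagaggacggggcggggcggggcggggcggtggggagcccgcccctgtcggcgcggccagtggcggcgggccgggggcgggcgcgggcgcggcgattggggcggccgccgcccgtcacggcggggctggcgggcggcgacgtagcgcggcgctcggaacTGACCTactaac
Per1: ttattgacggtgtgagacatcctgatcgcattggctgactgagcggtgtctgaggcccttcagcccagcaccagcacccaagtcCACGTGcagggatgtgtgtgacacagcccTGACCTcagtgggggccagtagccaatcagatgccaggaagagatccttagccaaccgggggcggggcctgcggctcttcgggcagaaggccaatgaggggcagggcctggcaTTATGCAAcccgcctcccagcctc
Dusp1: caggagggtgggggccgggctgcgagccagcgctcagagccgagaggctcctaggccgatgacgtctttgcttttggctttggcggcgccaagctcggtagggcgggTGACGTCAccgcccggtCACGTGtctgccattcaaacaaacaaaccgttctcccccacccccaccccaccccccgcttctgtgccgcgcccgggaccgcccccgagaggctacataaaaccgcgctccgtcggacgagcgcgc
The Cry1 window holds an E-box 60 to 55 bases before the start, and the Nfil3 window an AGGTCA element 12 to 7 bases before it. Per1 holds an E-box, an AGGTCA element and a D-box, and Dusp1 holds a cyclic AMP element beside an E-box. Of the 18 clock genes 15 had a promoter sequence, and 5 of these 15 held an E-box (33.3%), against 6.05% of 27025 promoters. The E-box also stood in 3 of the 13 immediate early promoters (23.1%) and in 1 of the 7 PPARA target promoters (14.3%). AGGTCA stood in 3 of the 15 and in 13.8% of all promoters, and the D-box in 2 of the 15 and in 3.23% of all. The direct repeat of AGGTCA with 1 base between the copies, which is the element of PPARA and holds the AGGTCA counted above, was in 0.0370% of all promoters and in 0 of the 7 PPARA target promoters given. The cyclic AMP element was in 2 of 13 immediate early promoters and in 1.62% of all. These matches are letters in a window and not shown sites.

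**Figure D4:**
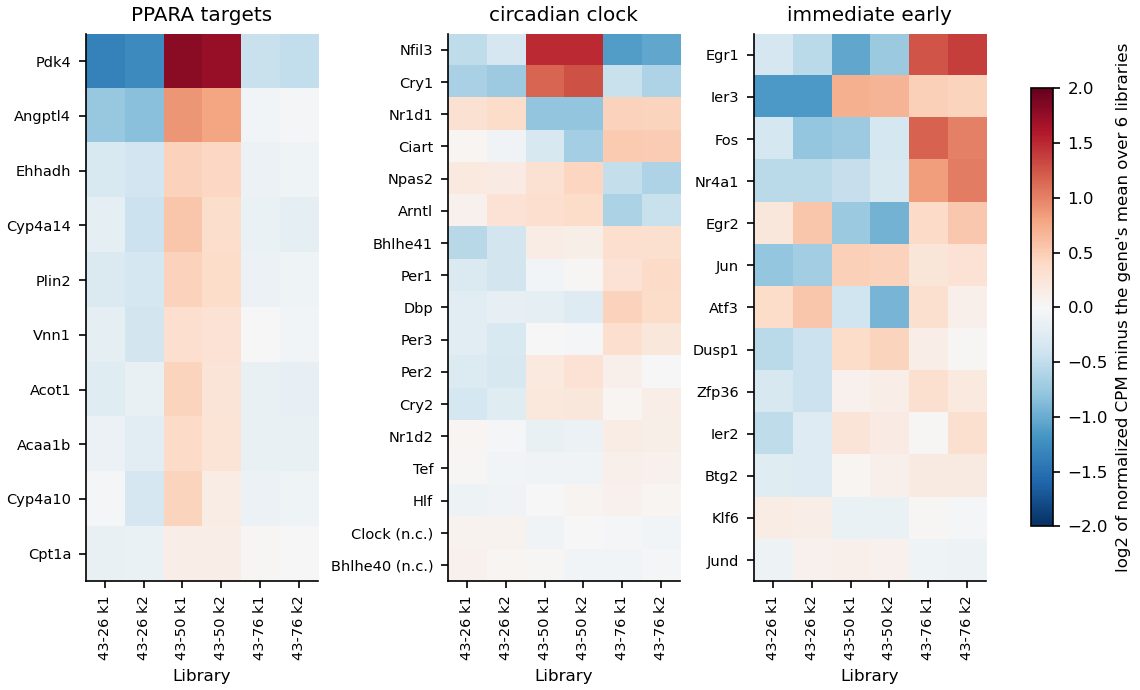
Log2 of normalized CPM minus each gene's mean over the 6 libraries, for PPARA targets, clock genes and immediate early genes (rows, by falling ratio) in the libraries of each mouse (columns, k for kidney). Kidneys of a mouse share colours, Pdk4, Nfil3 and Cry1 are red in 43-50, Egr1 is red in 43-76, and n.c. marks genes not called.

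Immediate early genes, which respond within minutes to growth signals or handling of tissue, differed without a common order. Of 15 tested, 13 passed, 7 of them at least 2-fold, against 24.9% and 2.03% of all genes. Ier3, Jun and Dusp1 were low in 43-26. Ier3 had 12.3 and 12.4 CPM there against 44.8 and 44.1 in 43-50 and 38.1 and 37.4 in 43-76, and Jun and Dusp1 spanned 2.30- and 1.86-fold. Egr1, Fos and Nr4a1 were instead high in 43-76. Egr1 had 25.4 and 27.7 CPM there against 5.12 to 8.37 CPM in the other 4 libraries, and Fos and Nr4a1 spanned 3.13- and 2.76-fold. Egr2 and Atf3 were lowest in 43-50 (2.48- and 2.15-fold), and Zfp36, Ier2, Btg2, Klf6 and Jund differed by 1.54-, 1.502-, 1.35-, 1.22- and 1.14-fold.

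Of the heat shock genes 8 of 11 differed, against 24.9% of all genes and 36.3% of those from 10 to 100 RPKM, Hspa1a (2.07-fold) and Hspa1b (1.89-fold) being lowest in 43-50, although 66.1% and 62.0% of their windows are shared, mostly with each other. The others were Dnajb1 (1.43-fold), Hsp90aa1 (1.33-fold), Hspa4l (1.22-fold), Hsp90ab1 (1.18-fold), Hsph1 and Hspa8 (1.14-fold each). The 8 had no common order. The highest mean was in 43-26 for 2, in 43-50 for 4 and in 43-76 for 2, and the lowest for 4, 3 and 1. All 8 genes of the glucocorticoid list differed, against the same shares of 24.9% and 36.3%, 7 of them with the highest mean in 43-26. Zbtb16 spanned 2.37-fold, Mt2 2.23-fold, Mt1 1.46-fold, Fkbp5 1.21-fold, Sgk1 1.15-fold, Klf9 1.11-fold and Errfi1 1.10-fold. Tsc22d3 was the exception, highest in 43-76 (1.54-fold). Without 43-26 or without 43-50, 4 heat shock genes were called, and without 43-26, 5 glucocorticoid genes.

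The NRF2 targets Hmox1, Gclc, Txnrd1, G6pdx, Gstm1, Gclm and Srxn1 differed by 1.62-, 1.61-, 1.21-, 1.20-, 1.19-, 1.17- and 1.17-fold. They were 7 of 10 tested, against 24.9% of all genes and 36.3% of those from 10 to 100 RPKM. Of the hypoxia targets 8 of 12 differed, against 24.9% of all genes, and 0 reached 2-fold, against 2.03%. These were Slc16a3 (1.88-fold), Ndufa4l2 (1.58-fold), Car9 (1.51-fold), Adm (1.49-fold), Slc2a1 (1.24-fold), Pfkp and Bnip3 (1.21-fold each) and Vegfa (1.14-fold). Their summed level stayed within 95.2 to 101 RPKM over the 6 libraries. Sterol synthesis had 5 of 10 called, against 24.9% of all genes, among them Cyp51, Sqle and Insig1 at 1.40-, 1.31- and 1.23-fold. The interferon list had 5 of 12, against the same 24.9%, among them Gbp2, Rsad2, Ifi44 and Bst2 at 1.86-, 1.70-, 1.37- and 1.35-fold. The androgen list had 3 of 8, against 24.9% of all genes and 64.9% of those at or above 100 RPKM. These were Cyp4a12a, Cyp4b1 and Odc1, at 1.17-, 1.14- and 1.06-fold. In the proliferation list 2 of 6 were called, Mki67 (1.65-fold) and Top2a (1.64-fold), both highest in 43-76, a share near the 24.9% of all genes, with 0 called by DESeq2's test and 1 with a block for kidney number. The counts of the lists in this paragraph are less firm. Without 43-26 they fell to 4 for NRF2, 5 for hypoxia, 1 for sterol synthesis, 2 for interferon and 0 for proliferation, and without 43-50 to 4 for NRF2, 4 for hypoxia and 3 for interferon. Without 43-76 they were 2 for sterol synthesis, 1 for androgen and 0 for proliferation, and single libraries also moved the sterol, interferon, androgen and proliferation counts.

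Injury genes of the tubule differed mostly with 43-26 highest. Havcr1, the kidney injury molecule of proximal tubules, had 3.09 and 6.73 CPM in 43-26, 2.77 and 2.91 in 43-50, and 0.740 and 0.798 in 43-76 (6.39-fold, edgeR, adjusted p = 0.000219). Without the second kidney of 43-26 it differed 4.03-fold, and without 43-76 it differed 1.73-fold and was not called. Krt20 spanned 12.3-fold, Lcn2 2.87-fold, Krt19 2.60-fold, Vcam1 2.42-fold and Cd44 1.60-fold, the highest mean of each being in 43-26, while Clu (1.32-fold) and Spp1 (1.24-fold) were highest in 43-50. Only 4 of the 10 listed genes reached 1 RPKM, Krt20 not among them, and the median level was 0.561 RPKM. In all, 8 of the 10 genes differed and 5 at 2-fold, against 24.9% and 2.03% of all genes, and 5 were called without 43-26, without its second kidney, or without 43-76.

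Immunoglobulin genes differed widely, with a different mouse highest from segment to segment. Ighm, the heavy chain of IgM, had 22.4 and 16.1 CPM in 43-26, 355 and 143 in 43-50, and 8.26 and 10.5 in 43-76 (26.6-fold, edgeR, adjusted p = 1.36e-07), and 15.2-fold without the first kidney of 43-50 and 2.05-fold without that mouse. Igkc also passed the test, but with 160 to 249 CPM over the 6 libraries (1.32-fold). Of 52 immunoglobulin segments tested, 32 (61.5%) differed and 30 at 2-fold or more, against 24.9% and 2.03% of all genes, with the highest mean in 43-26 for 8, in 43-50 for 10 and in 43-76 for 12 of these. Among the 20 largest ratios, 10 were such segments. Igkv12-38 had 65 and 107 reads in 43-76 and at most 2 in any other library, a ratio of 180 (exact 95% counting interval 31.9 to 7164). Igkv8-27 and Igkv4-57-1 were also highest in 43-76 (7.81- and 6.36-fold), Ighv14-4 and Igkv3-10 in 43-50 (13.5- and 6.96-fold), and Igkv12-98, Iglv3 and Igkv2-137 in 43-26 (9.51-, 8.97- and 6.21-fold). Ighv6-6 was lowest in 43-76 (6.42-fold). Some of these ranges rest on 1 library. Iglv3 had 3.60 and 1.00 CPM in 43-26 and spanned 3.90-fold without the first of these kidneys and 14.1-fold without the second. Igkv3-10 spanned 4.23-fold without the first kidney of 43-50 and Ighv6-6 3.77-fold without the second of 43-76, neither then called, and Ighv6-6 22.0-fold without the first of 43-76.

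Fat transcripts appeared in 43-50 and differed between its kidneys. Cfd, the adipocyte protease adipsin, had 265 and 32 reads in the kidneys of 43-50 and 0 to 2 reads in the other 4 libraries, a ratio to 43-76 of 248 (exact 95% counting interval 44.2 to 9837). Without the first kidney of 43-50 the ratio of the CPM means was 62.2, against 236 with it. Adipoq, not tested for its low counts, had 91 and 8 reads there and 0 elsewhere, Cidec 114 and 13, Plin1 46 and 12, and Lep 18 and 4. Car3 had 35.5 and 25.8 CPM against 13.1 to 15.5 CPM. Fabp4 did not pass the test, with 18.4 to 22.1 CPM. The summed fat list was 29.3 and 15.0 RPKM in 43-50 and 9.22 to 9.96 RPKM elsewhere. Ucp1 had at most 1 read in any library. Of the 5 fat genes tested 4 differed, each at least 2-fold, against 24.9% and 2.03% of all genes, calls that were lost without 43-50. Igfbp6 moved with these, with 4.10 and 1.13 CPM in 43-50 and at most 0.615 CPM elsewhere, and was not called without the first kidney. Pdk4, with 128 and 124 CPM, differed little between those kidneys, and the part of fat in the other results was not tested.

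Most endothelial and myeloid markers were lowest in 43-50. Of 9 endothelial genes 8 differed, against 24.9% of all genes, 7 of them lowest in 43-50, with Emcn spanning 1.51-fold, Plvap 1.30-fold, Kdr 1.33-fold and Eng, lowest in 43-76, 1.21-fold. With a block for kidney number 5 of the 9 were called, without 43-50 or by DESeq2's test 3, and without the second kidney of 43-76 5. Of 11 myeloid genes 9 differed, against the same 24.9%, all 9 lowest in 43-50. Lyz2 had 35.0 and 30.5 CPM in 43-26, 14.1 and 12.1 in 43-50, and 19.3 and 19.7 in 43-76, a range of 2.501-fold, and Adgre1 spanned 2.01-fold. In the opposite direction, the fibroblast genes Col1a1, Col3a1 and Col1a2 and the muscle genes Acta2, Tagln and Myh11 were highest in 43-50, by 1.68-, 1.58-, 1.28-, 1.66-, 1.43- and 1.47-fold, while Pdgfra and Pdgfrb were lowest there (1.49- and 1.48-fold). The fibroblast gene Lum, named after its values were seen, was the only member of these lists at 2-fold, with 2.62 and 1.44 CPM in 43-50 and 0.874 to 1.04 CPM elsewhere (2.12-fold). In each of these lists 5 of 6 genes were called, 3 by DESeq2's test and 2 without 43-50. The liver genes Alb, Ttr and Fgb were highest in 43-50 (1.75-, 1.55- and 1.93-fold), calls that were lost without 43-50. Ren1 had 39.0 and 52.1 CPM in 43-26, 81.6 and 89.4 in 43-50 and 75.5 and 67.1 in 43-76, a range of 1.88-fold. T and NK cell genes gave 1 call of 8, Cd3g (2.72-fold), which was lost on leaving out either kidney of 43-26 or of 43-76 or the first of 43-50, and the 3 erythroid genes gave none at an adjusted p of 0.05, with 0.576 to 0.705 by edgeR.

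Among podocyte genes 6 of 7 differed, against 24.9% of all genes. Nphs1, Synpo, Ptpro and Podxl were lowest in 43-76 with ranges of 1.34-, 1.29-, 1.27- and 1.15-fold. Wt1 did not pass, with 1.15-fold. Without 43-76, 2 of the 7 genes were called.

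Among the smallest p-values of genes of at least 10 RPKM were those of Bcl6, Pdk4, Resf1, Trib2, Entpd4b, Gm17041, Angptl4 and Aacs, from 2.09e-15 to 1.06e-11 after adjustment. Resf1 had 84.5 and 85.4 CPM in 43-26, 203 and 209 in 43-50, and 46.0 and 44.2 in 43-76. The pseudokinase Trib2 had 87.8 and 87.2 CPM, 184 and 183 CPM, and 68.2 and 65.9 CPM in the same order. Aacs, acetoacetyl-CoA synthetase of ketone use in lipid synthesis, had 82.7 and 83.4 CPM in 43-26, 213 and 200 in 43-50, and 169 and 172 in 43-76. Entpd4b spanned 2.38-fold, but all of its windows are found in Entpd4 or other transcripts, so it cannot be told from that copy.

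Reads of mt-Nd3 and mt-Tr came almost wholly from 43-50. The complex I mRNA mt-Nd3 had 89 and 66 reads in the kidneys of 43-50, 1 read in 43-26 and 0 in 43-76, at least 43.2-fold higher against 3 reads per mouse. The neighbouring tRNA gene mt-Tr had 95 and 85 reads in 43-50, 1 and 3 in 43-26 and 0 in 43-76, at least 50.1-fold higher. Of the windows of mt-Nd3, 98.0% also stand in the gene Gm28438, and of those of mt-Tr 0%. Counts alone do not show whether the transcripts themselves differ, and the cause of this difference was not tested. The 7 abundant mitochondrial mRNAs differed by 1.16-fold at most, mt-Cytb being lowest in 43-50, and 6 of these 7 passed the test. With mt-Nd3 they make 7 calls of 8 in the list, against 64.9% of genes at or above 100 RPKM, and 4 without 43-26 or without 43-50.

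**Figure D5:**
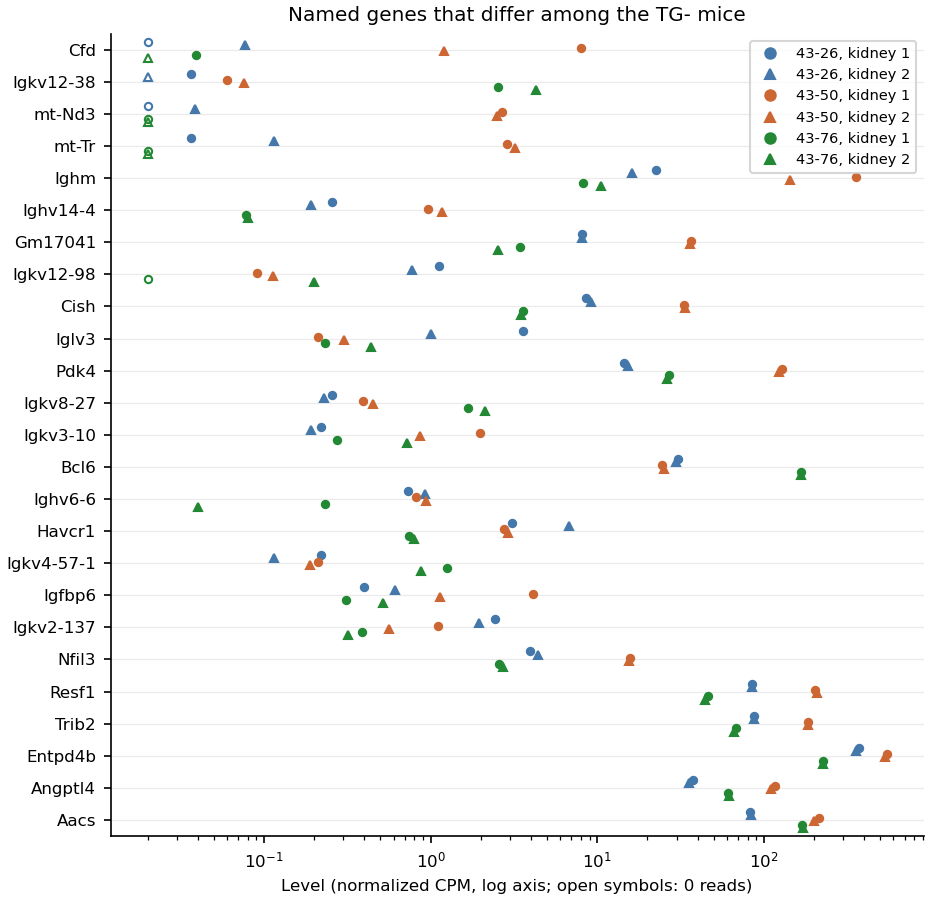
Normalized CPM on a log axis of genes named for the largest ratios among mice and the smallest p-values (vertical axis), with 1 point per library, coloured by mouse, and open symbols for 0 reads. Pdk4, Cish, Nfil3 and Ighm are highest in both kidneys of 43-50, Bcl6 and Igkv12-38 in 43-76, and Cfd differs between the kidneys of 43-50, with 7.98 and 1.21 CPM.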

How the data were processed

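RNA of kidney cortex was sequenced as 51-bp single-end reads from a TruSeq RNA kit on a HiSeq2000. The authors deposited, per library, the read count of 37681 Ensembl genes, the RPKM made after adding 1 read, and its log2. By the paper's methods the Tuxedo tools were mainly used, and the submitters' processing notes name the build mm9. The annotation, the counting program and the use of strand are not given in the sources used here, so overlapping genes could share reads. The deposited means per genotype (the authors' mean counts, not whole and so recorded as an expected count, with mean RPKM and log2) and the authors' columns of fold changes, p-values and q-values between genotypes were not used.

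The length behind the deposited RPKM was checked. For genes of 2 or more transcripts it matched the summed length of all transcripts within 1% in 29.3% of 16653 genes and the merged exon length in 1.63%, and its median ratio to the merged exon length was 1.56, so the deposited RPKM understates many such genes, though it overstates others, such as Gpx1. Levels were therefore recomputed here from the counts with merged exon lengths of GENCODE M21 (GRCm38), by Ensembl identifier, for 32642 genes. Merged exons include retained introns, which lowers some genes. The other 5039 genes, with 1.21 to 1.23% of reads, have no such level.

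Mice were compared on counts with edgeR 4.0.16 (R 4.3.3): filterByExpr, TMM, the quasi-likelihood F test for mouse with the kidneys as replicates, and Benjamini-Hochberg adjustment over 18070 genes, with a call at 0.05. Where the lowest mouse had 0 reads, 3 reads took its place, and with 1 to 3 reads an exact counting interval is given, which covers counting error only. The 2 kidneys of a mouse share the animal, and the chi-square between them was 1.95 to 2.59 per gene. The test was also run on simulated data. Alternatives were other scalings and filters, DESeq2 1.42.0, a block for kidney number, leaving out each library or mouse, and other limits. The deposited RPKM and the longest transcript were chosen as lengths after seeing the data. The members and gene lists were chosen with earlier results of these data known.

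Named are the 20 genes highest by RPKM and 10 by CPM, the 5 markers given, the 3 most abundant of each list or family, list members of cell types at 3 reads or fewer, the called members of the programs, the 20 largest ratios among 2-fold genes of at least 1 RPKM, and the 10 smallest p-values at 10 RPKM or more. Other genes were named after their values were seen. Some genes that these rules name are not reported here. Igha, Hmgcs1, Cyp2c44 and Cyp2d12 of the lists were not matched and are not analysed here. Tables were made with pandas 2.3.3 and numpy 2.4.6 in Python 3.11.15, intervals with scipy 1.17.1, and plots with matplotlib 3.10.9.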

Additional observations from a re-analysis of the deposited data

Results flagged for a closer look

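Over the 6 libraries, 104 values were searched for a library whose gap to the nearest other relative to the whole range exceeded Dixon's limit for 6 libraries, which chance gives in about 1 of 20 such groups, and 6 were found. The first kidney of 43-50 had the most reads, 33704850 against 24963346 to 27220420. The same library held the highest summed RPKM of the fat list, 29.3 against 9.22 to 15.0, the highest Cfd, 7.98 CPM against 0 to 1.21, and the highest Igfbp6, 4.10 CPM against 0.312 to 1.13. The second kidney of 43-26 had a summed RPKM of the skeletal muscle list of 4.28 against 1.33 to 1.99. The first kidney of 43-26 had 3.60 CPM of Iglv3 against 0.211 to 1.00 CPM. Their causes were not tested.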

How the results depend on the processing

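With other scalings, no filter or a stricter filter, 4510 to 5425 genes differed among the mice and 265 to 492 at 2-fold, against 4502 and 366. DESeq2's likelihood ratio test gave 2274 and 198, with its adjusted p missing for 1402 genes, and an adjusted p below 0.01 gave 2585 and 252. Without mouse 43-26 the counts were 2555 and 182, without 43-50 they were 2313 and 156, and without 43-76 they were 3530 and 249, each from 2 mice. Leaving out 1 library gave 3337 to 4110 and 307 to 418. At ratios of at least 1.5 and 4, 878 and 91 genes were called. Of the list members 178 differed, and 121 to 203 over all alternatives. By list, the count moved by over 1.5 times for 15, 14 and 10 lists without 43-26, 43-50 and 43-76, and for 13 with DESeq2's test. The clock, immediate early and myeloid counts were not among them.

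A block for kidney number gave 3947, 344 and 166 calls for the 3 counts. Over 4874 genes, the kidney differences of 2 mice correlated at 0.0815, -0.0389 and -0.162. These values cannot show whether a number stands for the same side in each mouse, since sides of similar levels would also correlate little.

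At 10 RPKM in place of 1, 4874 genes are counted, and 13463 to 13514 at 1 RPKM without 1 library. The 20 leading genes held 18.8% of CPM, 40.03% of the deposited RPKM, 40.4% of it without the added read, 31.6% with the longest transcript, 19.8% without the mitochondrial genome and 35.7 to 35.8% without 1 library. The median leader share was 70.6% by CPM, 68.6% with the longest transcript and 72.5 to 72.8% without 1 library, and another member led in 5, 2 and 7 families by CPM, the longest transcript and the deposited RPKM. With 3 animals, nothing here measures the spread among wild-type mice at large.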
